A study of Mus musculus with 8 samples.

Results

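The differentiated epithelium of the lung was represented by 10 marker genes, followed across all libraries of a mouse small cell lung cancer (SCLC) study: the alveolar type 1 markers Aqp5, Hopx and Ager, the alveolar type 2 markers Abca3, Sftpb, Sftpc and Sftpd, the ciliated cell markers Foxj1 and Tppp3, and the club cell marker Scgb1a1. They were taken from the table of read counts by gene symbol. Of the 10 markers, 9 had a row among the 22691 genes of the table (Sftpd was not analysed here), and 7 passed the filter on low counts and were tested together with all 13380 genes that passed it. SCLC lines grown from primary lung tumors of mice with the invCAG-Mycl-Luc transgene and Rb1-/-, on an FVB/n and 129/Ola background, had received either an empty vector (4 libraries) or mouse Nfib for overexpression (4 libraries). All 8 libraries share the transgene and the Rb1 loss, so the empty vector libraries are tumor cells and not normal lung. The pairs carry replicate numbers 1 to 4, from lines Lmyc1 (pair 1), Lmyc3 (pairs 2 and 3) and Lmyc5 (pair 4), with pairs 1 and 2 called old and pairs 3 and 4 called new in the labels, which do not explain those words. Neither the vector's promoter nor the ages of the mice or the clonality of the lines is given in the sources used here.

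The alveolar surface is covered by flat type 1 cells, through which gas and water pass, and is maintained by cuboidal type 2 cells, which make, store and secrete surfactant, a film of lipid and small proteins that lowers surface tension. The conducting airways carry ciliated cells, whose beating moves mucus, and secretory club cells, while the rare pulmonary neuroendocrine cells are the cell type that SCLC resembles. Nfib encodes one of the nuclear factor I (NFI) transcription factors and is needed for the lung epithelium to mature before birth, which is the reason to ask whether its forced expression moves these markers in tumor cells of neuroendocrine type. NFI proteins bind as dimers to a palindrome of TTGGC and GCCAA.

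Library totals were between 21815264 and 29934021 counts, and the most that an observed 0 leaves room for, 3 counts, lies between 0.102 and 0.142 CPM (counts scaled to a common library size). Such limits and the counting intervals below cover counting error only. Nfib ranged from 71.9 to 487 CPM with empty vector and from 1281 to 4672 CPM in the Nfib libraries, so the labels of both arms hold. The neuroendocrine genes Chga and Calca averaged 332 and 303 CPM per kb of exons over the 8 libraries. Among leukocyte markers Ptprc had 1 count in all 8 libraries together and Csf1r also 1, while Cd68, a lysosomal protein gene of macrophages that other cells express too, had 33 to 58 counts in every library, and Coro1a, an actin regulator that other cells express too, averaged 34.6 CPM. Among stromal and endothelial markers Vwf averaged 267 CPM, from 38.6 to 649 CPM, and Pdgfra 4.18 CPM, from 0.148 to 12.1 CPM. In contrast, the endothelial gene Cdh5 had at most 1 count in any library and Pecam1 at most 10. Of the check lists, 0 of 7 neuroendocrine genes, 0 of 2 tested stromal and endothelial genes (Vwf and Pdgfra) and 1 of 2 tested leukocyte genes passed the paired test described below, against 4.06% of all genes tested. The 1 that passed, Coro1a, fell (log2 fold change of -0.47 ± 0.14, DESeq2 adjusted p of 0.0302), a call that held only without replicate 1 when single pairs were left out. Nothing in the labels says whether the pairs are separate cultures of one time or of several, so the p-values reflect only how far these libraries differ, which may be technical. In cultures as a whole, fewer cells of a type and less RNA per cell cannot be told apart.

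RefSeq upstream windows were at hand for 5 of the 10 markers (Aqp5, Hopx, Ager, Abca3 and Sftpb), and 2 are shown because they give the only match found and a window without one. The motifs searched on both strands in the 250 bases before each start were the NFI half-site (TTGGC or its complement GCCAA) and the full palindrome, TTGGC and GCCAA with 5 bases of any kind between them, of which the half-site is a part. The Hopx window lies at chr5:77115124-77115373 on the minus strand and the Abca3 stretch at chr17:24351773-24351949 on the plus strand, where the window is cut at the first annotated exon (GRCm38.p6). Capitals mark the half-site.
Hopx: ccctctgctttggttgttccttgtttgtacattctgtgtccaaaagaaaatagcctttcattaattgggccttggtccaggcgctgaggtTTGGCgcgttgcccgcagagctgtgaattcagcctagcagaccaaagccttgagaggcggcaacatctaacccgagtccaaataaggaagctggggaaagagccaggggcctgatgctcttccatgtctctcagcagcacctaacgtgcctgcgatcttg
Abca3: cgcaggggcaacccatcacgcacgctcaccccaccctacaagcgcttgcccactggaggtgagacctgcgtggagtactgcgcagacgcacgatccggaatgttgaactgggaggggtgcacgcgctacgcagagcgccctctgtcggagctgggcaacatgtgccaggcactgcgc
In the Hopx window the half-site begins 160 bases before the start, while the windows of Aqp5, Ager, Abca3 and Sftpb, and that of a second Hopx start, hold none. The windows of Aqp5, Abca3 and the second Hopx start overlap annotated exons. That of Aqp5 runs from 99590778 to 99591027, past the gene start at 99590849, so only its first part lies upstream of that start. A half-site stood in 41.5% of the 32851 windows of this length over all genes and the full palindrome in 0.0365%, and no marker's window held the full palindrome. These matches describe letters in short windows and were not set against binding data.

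Among the 9 markers, only Abca3, Tppp3, Foxj1 and Ager were above the limit of 3 counts in all 8 libraries. Aqp5, Hopx and Sftpc exceeded it in 6 libraries each, Scgb1a1 in 1 and Sftpb in 0. Per length, Abca3 was the most abundant at 10.1 ± 1.76 CPM per kb of exons (SD, n = 8), followed by Tppp3 at 2.91 ± 1.03, Hopx at 2.09 ± 1.58, Sftpc at 1.85 ± 3.32, Foxj1 at 1.22 ± 0.883, Aqp5 at 1.18 ± 1.66 and Ager at 0.578 ± 0.471 CPM per kb. The lowest Abca3 library (7.66 CPM per kb) lay above the highest Tppp3 library (5.01 CPM per kb), whereas every other pair of neighbours in this order overlapped between libraries. The order below Tppp3 depends on the libraries taken. With empty vector alone Aqp5 averaged 0.380 ± 0.619 CPM per kb, under Ager at 0.586 ± 0.550 (SD, n = 4), and with Nfib 1.97 ± 2.08. Without the empty vector library of pair 2, Sftpc averaged 0.690 ± 0.470 CPM per kb (SD, n = 7), under Foxj1 and Aqp5. All 9 were far below Chga and Calca on this scale, and Scgb1a1 and Sftpb averaged 0.106 and 0.00515 CPM per kb.

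On the log2 CPM scale with a prior count of 2 the empty vector libraries spanned 6.98 for Sftpc, 5.42 for Hopx, 5.39 for Aqp5, 2.36 for Ager, 1.40 for Tppp3, 1.14 for Foxj1 and 0.68 for Abca3. The lowest library had 0 counts for Sftpc and Aqp5 and 1 for Hopx, so the size of these spans depends on the prior count. The median size of the within-pair difference was 3.23 for Sftpc, 2.5 for Aqp5, 0.82 for Foxj1, 0.69 for Hopx and at most 0.39 for the other 3. The Foxj1 difference in pair 3, at 1.76, was larger than its range among empty vector libraries.

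**Figure D1:**
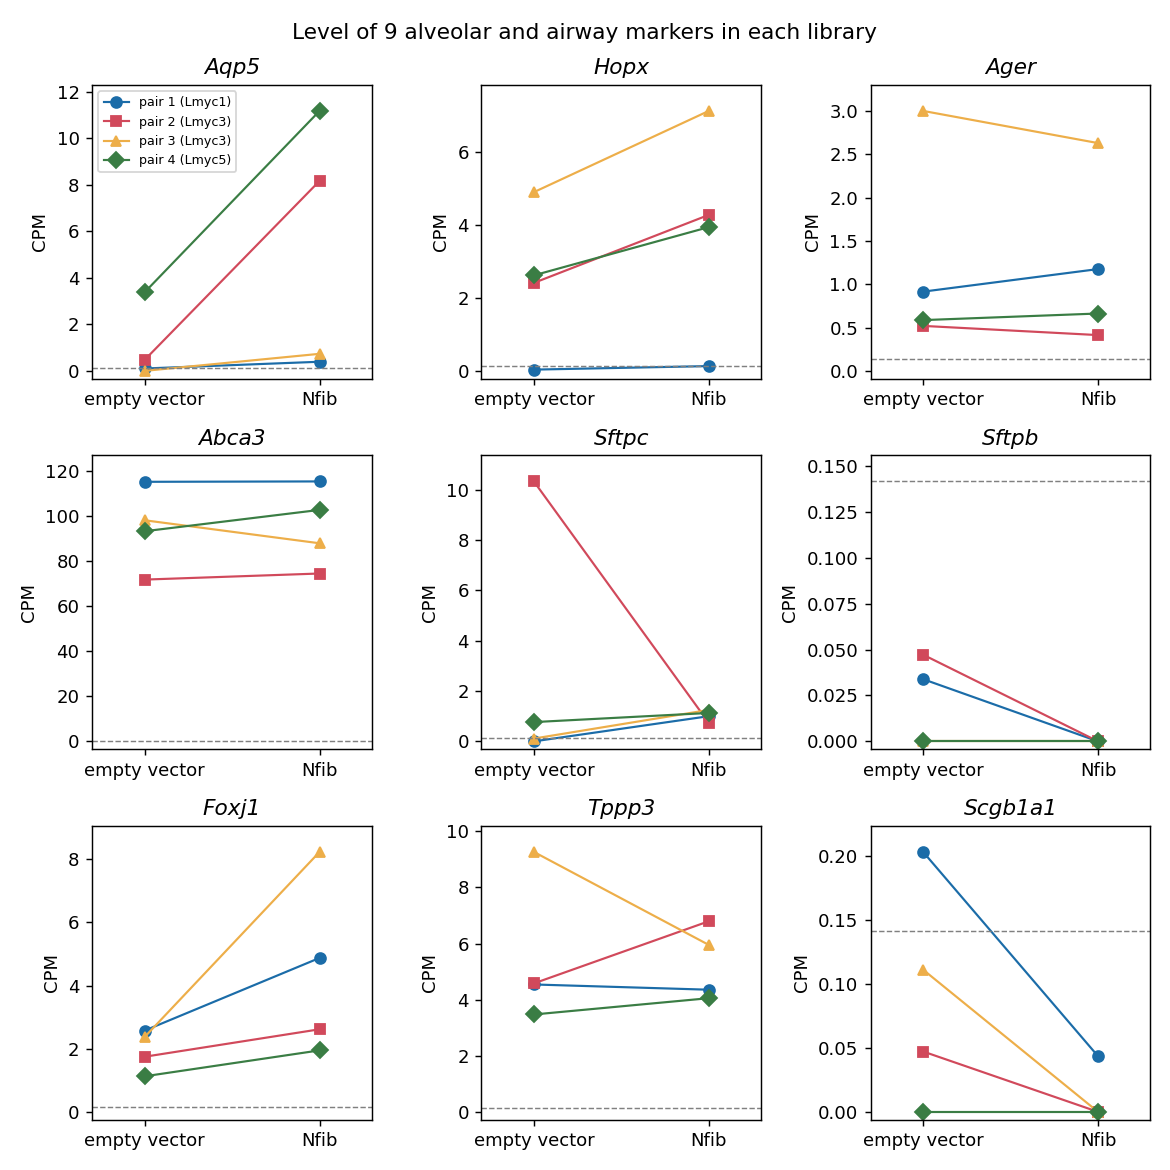
Level in CPM of the 9 markers in the table (one panel each, linear axis) with empty vector and with Nfib, where each line joins the libraries of 1 pair and the dashed line is the highest 3-count limit (0.142 CPM). Aqp5, Hopx and Foxj1 are higher with Nfib in all 4 pairs, Sftpc is high in 1 empty vector library (10.3 CPM), and Sftpb stays under the limit.

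The comparison of Nfib with empty vector asked which of the markers change when Nfib is forced up. Aqp5 was the only one of the 7 tested markers that rose in the paired DESeq2 test, and edgeR without a block did not call it. That paired test was chosen with earlier results of these data known, a call of Aqp5 among them. In the text, rose and fell mean an adjusted p under 0.05 in DESeq2's Wald test with the replicate number as a block, where 1 of 7 markers was called higher and 0 lower, against 1.86% of all tested genes called higher, 2.20% called lower and 4.06% in either direction. The edgeR quasi-likelihood test without a block, the primary test, called 0 of 7 markers and 0% of all tested genes, and 0 markers and 0.620% of genes had an unadjusted p under 0.05. With the replicate block edgeR again called 0 of 7 and 0% of genes, limma voom 0 of 7 (0.0224% of genes) and edgeR's bias-adjusted form 0 of 7 (0.329%). At an unadjusted p under 0.05 each of these 3 fits and the paired DESeq2 test had 3 markers, Aqp5, Foxj1 and Hopx, where edgeR with the block had 15.0% of all genes, DESeq2 13.9% and the other 2 fits 16.6% each. The same 3 markers were the ones higher with Nfib in all 4 pairs, as were 12.8% of all tested genes, and 0 of 7 were lower in all 4 pairs (12.8% of genes). In no tested marker did the 2 groups separate completely, which they did for 0.516% of all genes.

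**Figure D2:**
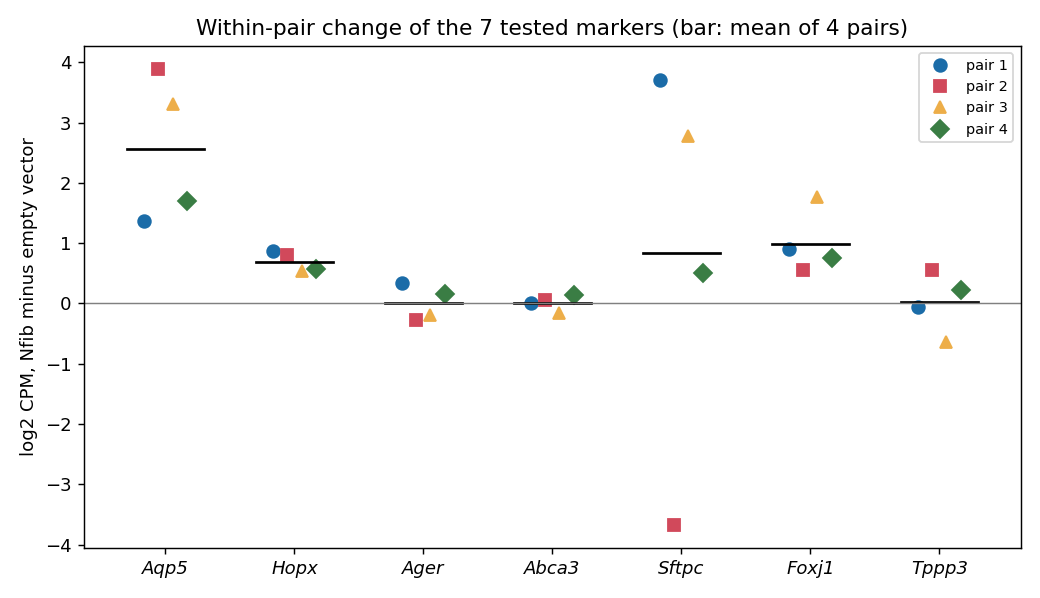
Within-pair difference in log2 CPM (prior count of 2), Nfib minus empty vector, for the 7 tested markers, with 1 point per pair and a bar at the mean of the 4 pairs. Aqp5, Hopx and Foxj1 lie above 0 in all 4 pairs, Abca3 stays between -0.16 and 0.14, and Sftpc runs from -3.67 in pair 2 to 3.71 in pair 1.

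Aqp5 (ENSMUSG00000044217, chromosome 15, 99590849 to 99594829, GRCm38) encodes the water channel of the apical membrane of type 1 cells and of several glands. With empty vector it had 3, 10, 0 and 75 counts in replicates 1 to 4, or 0.102, 0.472, 0 and 3.38 CPM. With Nfib it had 9, 178, 17 and 287 counts, or 0.392, 8.17, 0.733 and 11.2 CPM. Every Nfib library was above its own empty vector partner and above the counting limit, which 2 of the 4 empty vector libraries were not. The groups nevertheless overlap, since the Lmyc5 empty vector library was higher than the Nfib libraries of pairs 1 and 3. The fold was 17.3 in pair 2 (95% exact interval 9.19 to 36.7) and 3.31 in pair 4 (2.56 to 4.32). In pair 3, with 0 counts in the empty vector library, Aqp5 was 6.59-fold higher with Nfib if 3 counts are taken for that library. That value leaves out the counting error of the 17 Nfib counts and is not a lower 95% limit. Pair 1, with 3 and 9 counts, gave a ratio of 3.85 (0.962 to 22.1), an interval that includes 1. The group means were 0.989 ± 1.61 and 5.12 ± 5.40 CPM (SD, n = 4).

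The paired log2 fold change of Aqp5 was 3.08 ± 0.71 (SE) with an adjusted p of 0.00119 in DESeq2, 2.82 ± 0.60 with an adjusted p of 0.179 in edgeR with the replicate block, and 2.37 ± 1.67 with an unadjusted p of 0.193 in edgeR without the block. Pairs 2 and 3 share line Lmyc3, so the replicate block does not stand for 4 separate lines. With the line as block edgeR gave 3.03 ± 1.37 with an unadjusted p of 0.0728, and Aqp5 was not called. For edgeR the value after ± was derived from F, as the fold change on the log2 scale over the root of F. The DESeq2 call was lost without replicate 2, with a log2 fold change of 2.59 and an adjusted p of 0.0523, and held without replicate 1, 3 or 4. Over 19 fits the adjusted p of Aqp5 ran from 0.000909 to 0.99999. In a further fit, limited to genes of at least 1 CPM in 4 libraries, Aqp5 was too low to be tested.

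Aqp5 lies in a stretch of chromosome 15 with other genes of the same and of unrelated families, which were taken by position within 100 kb after the Aqp5 values were known. The aquaporin gene Aqp6, which begins at 99601400, had at most 1 count in any library. Of the 3 tested neighbours, Racgap1, a regulator of cytokinesis, had a paired DESeq2 log2 fold change of -0.03 ± 0.10, the acid-sensing channel gene Asic1 one of 0.38 ± 0.19 (adjusted p of 0.345) and Faim2, an inhibitor of Fas-mediated death, one of 0.32 ± 0.22 (adjusted p of 0.588). Thus none of the tested neighbours passed. Of 8 aquaporin genes in the table, 3 were tested, and Aqp5 was the 1 that rose, against 1.86% of all genes tested. The brain and lung water channel Aqp4 had 237 and 816 counts in pair 2 but 116 and 89 in pair 3 (paired log2 fold change of 0.78 ± 0.43, adjusted p of 0.408), and Aqp11 had a value of 0.19 ± 0.43 (adjusted p of 0.941). Over the 8 libraries the genes most like Aqp5 in log2 CPM, among 12596 genes of at least 1 CPM, were Rab11fip3 (Pearson r of 0.97), the kinase gene Akt1 (0.97) and Ccdc157 (0.96). The libraries are paired by line, so these r values are descriptions, and the swing differs in size: Akt1 went only from 224 to 305 CPM. Ccdc157 rose (paired log2 fold change of 0.52, DESeq2 adjusted p of 0.00309), while Rab11fip3 and Akt1 did not pass.

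Hopx (ENSMUSG00000059325, chromosome 5, 77086988 to 77115121) encodes a small homeodomain protein without DNA binding of its own that marks type 1 cells. Its counts with empty vector were 1, 51, 132 and 58, or 0.0339, 2.41, 4.89 and 2.61 CPM, and with Nfib 3, 93, 165 and 101, or 0.131, 4.27, 7.11 and 3.93 CPM. Line Lmyc1 was at or under the counting limit in both arms, and in the other 3 pairs the Nfib library was the higher one, by 1.77-fold (1.25 to 2.55), 1.45-fold (1.15 to 1.84) and 1.5-fold (1.08 to 2.12). The log2 difference within pairs was 0.70 ± 0.17 (SD, n = 4 pairs) with a prior count of 2 and 0.85 ± 0.43 with one of 0.5, which moves pair 1, with 1 and 3 counts, from 0.87 to 1.47. It did not pass: the paired DESeq2 log2 fold change was 0.70 ± 0.34 (SE, adjusted p of 0.314), and the lowest adjusted p over 20 fits was 0.142, in edgeR's bias-adjusted form. An annotated antisense gene, Hopxos, shares 412 bases of exon with Hopx, and reads of the 2 cannot be told apart without a strand setting.

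The wide range of Hopx among empty vector libraries rests on replicate 1, with its single count. Without it the range was 1.02 on the log2 scale, here taken without a prior count, and its extremes were the 2 cultures of line Lmyc3. The 3 genes most like it in log2 CPM were Ash2l, a subunit of histone methyltransferase complexes (r of 0.995), 2700029M09Rik (0.99) and the mitochondrial channel gene Vdac3 (0.99). All 3 lie on chromosome 8, not on chromosome 5 where Hopx is, and like Hopx they were lowest in the 2 libraries of line Lmyc1, where Ash2l was at 49.1 and 58.3 CPM against 114 to 149 CPM in the other 6. 2700029M09Rik rose (paired log2 fold change of 0.23, DESeq2 adjusted p of 0.0464), while Ash2l and Vdac3 did not pass.

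Ager (ENSMUSG00000015452, chromosome 17, 34597862 to 34600936) encodes the receptor for advanced glycation end products, abundant on the basal face of type 1 cells. It was at 0.915, 0.519, 3.0 and 0.586 CPM with empty vector and at 1.18, 0.413, 2.63 and 0.662 CPM with Nfib. Both libraries of pair 3 were the highest of their arms, and within pairs the sign was mixed, higher with Nfib in 2 of 4. The paired DESeq2 log2 fold change was 0.0049 ± 0.46 (adjusted p of 0.999), an SE that leaves room for changes in either direction. Both Lmyc3 cultures bear on this: Ager was at 0.519 and 0.413 CPM in the pair called old and at 3.0 and 2.63 CPM in the pair called new, so libraries of the same line differed more than arms.

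Abca3 (ENSMUSG00000024130, chromosome 17, 24351950 to 24410201) encodes the lipid transporter that loads surfactant phospholipid into the lamellar bodies of type 2 cells. It was at 115, 71.8, 98.1 and 93.3 CPM with empty vector and at 115, 74.5, 87.9 and 102.7 CPM with Nfib. The ranges of the 2 arms overlap almost fully, and the differences within pairs were small, with folds between 0.896 (0.845 to 0.95, pair 3) and 1.1 (1.04 to 1.17, pair 4). The paired log2 fold change was 0.00064 ± 0.086 (SE) in DESeq2, which makes Abca3 the marker whose change was bounded most tightly. D330041H03Rik, a noncoding gene on the other strand, shares 914 bases of exon with Abca3.

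Sftpc (ENSMUSG00000022097, chromosome 14, 70520941 to 70524081) encodes the hydrophobic surfactant protein C, made by type 2 cells and their progenitors. Its counts with empty vector were 0, 219, 3 and 17, or 0, 10.3, 0.111 and 0.766 CPM, and with Nfib 23, 16, 29 and 29, or 1.0, 0.734, 1.25 and 1.13 CPM. The Nfib libraries were thus close to each other and all above the counting limit, while the empty vector libraries ran from no count to the highest level of the 8. The direction differed between pairs. With Nfib, Sftpc was 9.85-fold higher in pair 1 if the empty vector library, with 0 counts, is taken at 3 counts, which leaves out the counting error of the 23 Nfib counts. It was 11.2-fold higher in pair 3 (3.49 to 57.7), but in pair 2 the empty vector library was 14.1-fold above the Nfib library (8.48 to 25.1). Pair 4 gave 1.47 (0.783 to 2.86). No fit that gave an adjusted p called Sftpc, and its sign depended on the fit: the log2 fold change was -1.44 ± 1.57 in edgeR without the block, 0.55 ± 1.46 in edgeR with the replicate block and 1.78 ± 1.25 (adjusted p of 0.598) in DESeq2 with the block. Without replicate 2 edgeR without the block gave 1.96, and DESeq2 with the block gave 3.26 ± 1.3 with an unadjusted p of 0.0121 and no adjusted p.

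Some other alveolar transcripts, chosen after their values were seen, were also highest in that empty vector library of pair 2, and others were lowest there. The claudin gene Cldn18 had 13 counts there and 0 in the other 7 libraries, the surfactant protein gene Sftpa1 had 5 there, 3 in the empty vector library of pair 3 and 0 elsewhere, and the lysozyme gene Lyz2 had 17 there against 1 to 9 elsewhere. The abundant type 2 genes Abca3 and Lpcat1 were at their lowest of all 8 libraries in it, at 71.8 and 57.9 CPM. Cxcl15, S100g and Pdpn had 0 counts there, as in most other libraries. Sftpb, which encodes the surfactant protein without which lamellar bodies do not form, had 1 count in each of 2 empty vector libraries and 0 in the other 6. Lamp3, Napsa, Slc34a2 and Ctsh, further defining genes of mature type 2 cells, had at most 3 counts in any library. The part of other lung cells in the Sftpc level was not tested.

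Foxj1 (ENSMUSG00000034227, chromosome 11, 116330704 to 116335399) encodes the transcription factor that drives the program of motile cilia. It was at 2.58, 1.75, 2.37 and 1.13 CPM with empty vector and at 4.88, 2.62, 8.24 and 1.95 CPM with Nfib, and its counts ranged from 25 to 191. The Nfib library was higher in all 4 pairs, by 1.89-fold (1.40 to 2.57), 1.5-fold (0.973 to 2.33), 3.47-fold (2.60 to 4.68) and 1.73-fold (1.05 to 2.92) in pairs 1 to 4, so the interval includes 1 in pair 2. The groups overlap because pairs differ in level, with pair 4 lowest in both arms. The group means were 1.96 ± 0.655 and 4.42 ± 2.84 CPM (SD, n = 4). Foxj1 did not pass: the paired log2 fold change was 1.03 ± 0.36 (SE, adjusted p of 0.0740) in DESeq2 and 1.05 ± 0.25 (adjusted p of 0.204) in edgeR with the block, and the lowest adjusted p over 20 fits was 0.0616, in DESeq2 with total-count scaling.

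Tppp3 (ENSMUSG00000014846, chromosome 8, 105467493 to 105471526) encodes a tubulin-binding protein abundant in ciliated cells and also made elsewhere. It was at 4.54, 4.58, 9.26 and 3.47 CPM with empty vector and at 4.35, 6.79, 5.95 and 4.05 CPM with Nfib. Pairs 2 and 3, both of line Lmyc3, went opposite ways, with a ratio of 1.48 (1.14 to 1.94) in the pair called old and 0.642 (0.518 to 0.794) in the pair called new. The paired DESeq2 log2 fold change was 0.0089 ± 0.30 (SE, adjusted p of 0.998). Tppp3 and Foxj1, both counted as ciliated cell markers, therefore did not share a direction over the pairs.

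Scgb1a1 (ENSMUSG00000024653, chromosome 19, 9083636 to 9087958) encodes the main secreted protein of club cells. It had 6, 1, 3 and 0 counts with empty vector and 1, 0, 0 and 0 with Nfib. Only the empty vector library of pair 1 was above the limit of 3 counts, at 0.203 CPM. The ratio of empty vector to Nfib in that pair was 4.67 with an interval of 0.567 to 215, which includes 1. Over the 4 pairs there were 10 counts with empty vector and 1 with Nfib, and the empty vector library was higher in each of the 3 pairs with any count. In edgeR without a filter on low counts and without a block, the log2 fold change was -2.64 ± 1.25 with an unadjusted p of 0.0659 and an adjusted p of 1.0, so Scgb1a1 did not pass.

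**Figure D3:**
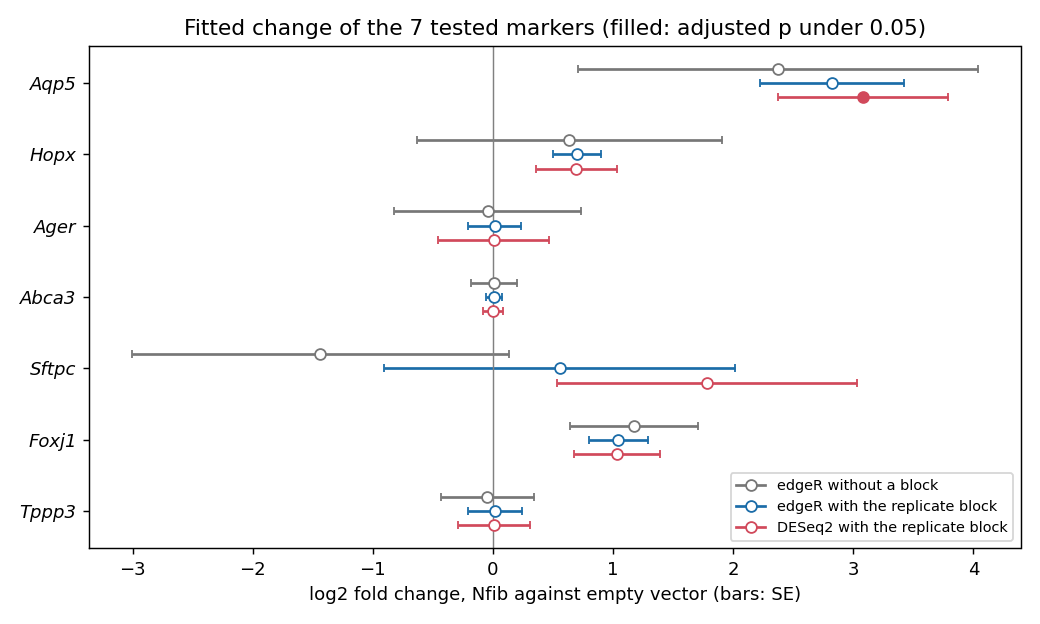
Log2 fold change of Nfib against empty vector for the 7 tested markers in 3 fits, with bars of 1 SE (for edgeR derived from F). The only filled point, Aqp5 in DESeq2 with the replicate block at 3.08, marks the single call, and the Sftpc points lie on both sides of 0.

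Larger lists of genes for the same cell types, chosen by textbook role but with earlier results of these data known, are given beside the markers. Of all tested genes 1.86% rose and 2.20% fell, which is the share to set beside the calls in each list below. With so few genes tested per list, the calls are given gene by gene and not read as a result about a list. In the alveolar type 1 list 10 of 15 genes were tested, and 1 rose (Aqp5) and 1 fell. The one that fell, Lmo7, encodes an adaptor of adherens junctions and the actin cytoskeleton. Its empty vector mean was 282 ± 184 CPM and its Nfib mean 180 ± 136 CPM (SD, n = 4). The log2 fold change was -0.71 ± 0.14 (SE) with an adjusted p of 7.02e-05 in DESeq2. Lmo7 was lower in every pair, and the DESeq2 call held whichever pair was left out. In edgeR with the block its adjusted p was 0.166, and neither edgeR nor limma voom called any gene of the lists in any of the fits run. The proteoglycan gene Spock2 was the most abundant member at 101.5 CPM per kb. Its within-pair log2 differences were 0.86, 2.55, 0.01 and 0.55 (adjusted p of 0.389). Emp2, a tetraspan membrane protein gene, had an adjusted p of 0.738. The mucin-type glycoprotein gene Pdpn, a defining type 1 gene, had at most 2 counts. The list's median log2 fold change was 0.39 in DESeq2, against -0.01 over all genes tested, and 0.25 in edgeR with the block, against 0.00092. Its median within-pair log2 difference was 0.60, 0.30, -0.18 and 0.29 in pairs 1 to 4.

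In the alveolar type 2 list 5 of 16 genes were tested, and 0 rose or fell in the paired DESeq2 test, with 0 also in edgeR. Besides Abca3 and Sftpc these were the phospholipid-remodelling enzyme gene Lpcat1, which like Abca3 was abundant and even (81.0 ± 22.9 against 81.9 ± 25.8 CPM, SD, n = 4, log2 fold change of 0.00047 ± 0.098 SE), the mucin gene Muc1 (0.44 ± 0.29) and the transcription factor gene Etv5 (0.34 ± 0.35). The median was 0.34, and the median within-pair log2 difference was 0.09, 0.18, -0.16 and 0.51 in pairs 1 to 4. In a list for surfactant lipid synthesis and processing, 7 of 12 genes were tested and 1 fell, Scd1, which encodes a desaturase of fatty acids and serves membrane lipid in all growing cells. Its log2 fold change was -0.997 ± 0.26 (SE, adjusted p of 0.00647), but the difference in pair 4 was 0.02, and the call was lost without replicate 1 (adjusted p of 0.142), without replicate 2 (0.526) and without replicate 3 (0.498). Fasn, the fatty acid synthase gene, was at 689 CPM and had an adjusted p of 0.369, and its regulator Srebf1 one of 0.820.

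In the ciliated list 9 of 23 genes were tested and 0 rose or fell, again with 0 in edgeR. The median was 0.0089. Rfx3, a transcription factor of ciliated cells that is active in endocrine cells too, was the most abundant at 12.9 CPM per kb (0.13 ± 0.17, adjusted p of 0.861), and the axonemal gene Rsph1 had a value of -0.45 ± 0.29 (adjusted p of 0.536). In the club and secretory list 3 of 15 genes were tested and 0 called. Among them Aldh1a1, a retinaldehyde dehydrogenase gene, was lower with Nfib in all 4 pairs, from 14300 to 726 counts in pair 2, without passing (-1.99 ± 0.78, adjusted p of 0.149). Upk3a had an adjusted p of 0.878. Of 6 basal cell genes none was tested. The neurotrophin receptor gene Ngfr had the most counts among them, with 66 and 149 in pair 4, 4 and 6 in pair 1, 1 and 4 in pair 3 and 0 in pair 2. The keratin genes Krt5 and Krt14 had 3 and 8 counts in the empty vector library of pair 1 and 0 in the other 7. Among 11 tested regulators of lung epithelial fate, 1 fell, Nkx2-1, the factor that directs surfactant genes and lung identity (-0.39 ± 0.11, adjusted p of 0.0122), a call lost without replicate 3 (0.192) or replicate 4 (0.139). Foxa1 (-0.02 ± 0.08), Foxa2 (-0.14 ± 0.10) and Id2 (0.37 ± 0.18) did not pass.

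**Figure D4:**
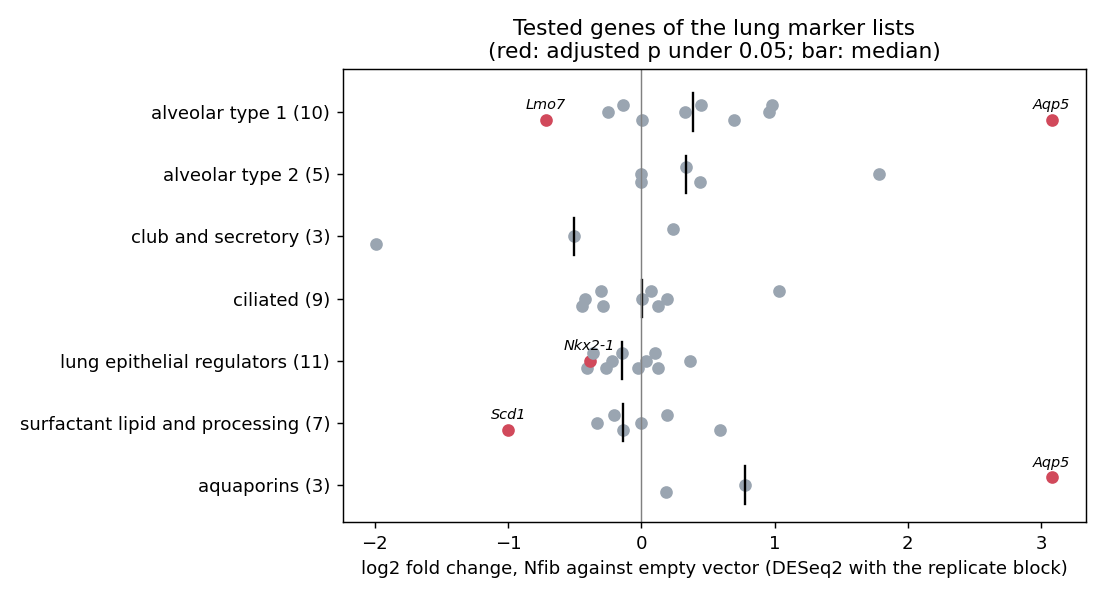
Paired DESeq2 log2 fold change of each tested gene in 7 lists of lung epithelial and aquaporin genes (number tested in brackets), with a bar at each median. The 4 red genes passed at an adjusted p under 0.05: Aqp5 (in 2 lists) at 3.08 and, on the other side, Lmo7 at -0.71, Nkx2-1 at -0.39 and Scd1 at -0.997.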

How the data were processed

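Expression was measured by RNA-seq (TruSeq RNA kit, per the labels' protocols). The authors deposited raw read counts per Ensembl gene. TopHat2 2.1, Bowtie 1.0.0, SAMtools 0.1.19, DESeq2 and GRCm38 (mm10) are named, per the submitters' processing notes. Not given in the sources used here: the counting tool, its strand setting and the gene models.

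Genes passing edgeR's expression filter were fitted with edgeR 4.0.16 (quasi-likelihood, original form, TMM, R 4.3.3), Benjamini-Hochberg at 0.05; alternatives were DESeq2 1.42.0, limma 3.58.1, other blocks, scalings and filters, and each pair left out. Both libraries of a number share a line and deviate together from the mean of their arm (r of 0.908, 0.884, 0.935 and 0.929). No other combination was above 0.0647, the 2 Lmyc3 cultures included, but centring on a mean of 4 libraries by itself lowers these other values. CPM uses TMM-scaled totals, and within-pair log2 CPM a prior count of 2. Exon lengths come from GENCODE M21 (22423 of 22691 identifiers). Named genes were the markers, list genes that passed or ranked in the top 3 per length, and the 3 most correlated with Aqp5 and with the most variable tested marker after it in log2 CPM, Hopx. Other genes were named from the same lists, or by position beside Aqp5, after their values were seen. Markers, lists and the choice of the paired DESeq2 test for rose and fell were made with earlier results of these data known. A further item of the labels' genotype is not reported here.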

Additional observations from a re-analysis of the deposited data

Results flagged for a closer look

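Of 25 sets of 4 values checked for a sample far from the others (9 markers in each arm, and the within-pair differences of 7 markers), 4 had one. The check's chance rate of about 1 in 20 holds for normally distributed values. It does not hold for skewed CPM near the counting limit, so the 4 are not read as an excess. Sftpc stood out in the empty vector library of replicate 2, at 10.3 CPM against at most 0.766 CPM in the other 3. Aqp5 stood out in the empty vector library of replicate 4, at 3.38 CPM against at most 0.472 CPM. Ager stood out in the empty vector library of replicate 3, at 3.0 CPM against at most 0.915 CPM. Scgb1a1 stood out in the Nfib library of replicate 1 at 0.0435 CPM, which is a single count beside 3 libraries with none, a set that the check always flags.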

How the results depend on the processing

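The count of called genes depended on the test. Against 0 in edgeR without a block, DESeq2 with the replicate block called 543 genes, 1 of them a marker and 5 of them in the lists; with total counts these were 525, 1 and 4. The bias-adjusted edgeR fit with the replicate block called 44 genes, and DESeq2 without a block and limma voom with it 3 each, none a marker. Leaving out a pair, paired DESeq2 called 351, 382, 234 and 251 genes (without replicates 1 to 4), 0 or 1 marker and 2 to 6 list genes, and edgeR 0. For Aqp5 the paired DESeq2 log2 fold change was 3.08, 3.11 with total counts, and 3.42, 2.59, 2.62 and 3.82 without replicates 1 to 4. All 19 fits that tested Aqp5 gave a positive value, and the filter of at least 1 CPM in 4 libraries removed it. Hopx and Foxj1 were also positive in all fits.

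Signs turned, without a call, for 4 markers against edgeR without the block. Abca3 gave -0.00034 (DESeq2 without a block), -0.00018 (DESeq2 size factors), and -0.0029, -0.011, -0.036 and -0.039 without replicate 2 or 4. Sftpc gave 0.55, 1.78 and 1.82 in edgeR, DESeq2 and total-count DESeq2 with the replicate block, and 1.96, 0.20, 3.26, 0.62 and 2.79 in fits without a pair. Ager gave 0.014, 0.0049 and 0.040 in the same 3 fits, 0.023 with the line as block, and 0.097, 0.15 and 0.080 without a pair. Tppp3 gave 0.016, 0.0089 and 0.044, and 0.038, 0.27 and 0.24 without a pair. Within-pair means moved by less than their SD with a prior count of 0.5 or total counts. Per length of the longest transcript, Abca3 was at 14.6 CPM per kb. The causes were not tested. Sftpb and Scgb1a1 had too few counts to be tested with the filter.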

Other observations

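Several lung epithelial genes outside the tested set had most of their counts in the 2 libraries of 1 pair. They were chosen after their values were seen and carry no test. The calcium-binding protein gene S100g had 343 counts with empty vector and 123 with Nfib in pair 1 (line Lmyc1) and 0 in the other 6 libraries. The lung chemokine gene Cxcl15 had 38 and 278 counts in pair 4 (line Lmyc5) and 0 in the other 6. The chloride channel family gene Clic5 had 132 and 66 counts in pair 3 against at most 15 in the other 6 libraries. Sox9, a factor of distal lung progenitors, had 116 and 376 counts in pair 2 and 2 and 29 in pair 4, and at most 2 in pairs 1 and 3.

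A regulator and a part of motile cilia, picked from the ciliated list after their values were seen, were highest in 1 library. Gmnc, a gene of the multiciliated cell program, had 38 counts in the Nfib library of pair 2, 1 in that of pair 4 and 0 in the other 6. The dynein gene Dnaic1 had 102 counts in the same Nfib library of pair 2 and between 5 and 12 in the other 7. In that pair Foxj1 had 37 and 57 counts, the smallest of its 4 within-pair differences in log2 CPM. Other genes of the ciliated list were lower with Nfib in pair 2, with 94 and 42 counts for Rsph1 and 324 and 222 for Ccdc39. Over the 9 tested genes of that list the median log2 difference in pair 2 was 0.04.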
